A study of Saccharomyces cerevisiae with 8 samples.

Results

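Transcripts of the cytosolic translation factors of budding yeast, the soluble proteins that start, extend and end translation on the ribosome, were followed under rapamycin and in a strain with lowered IFH1. The set was given by name as 38 genes, and 37 of them were found by gene name among the 6569 genes of the table. The missing gene, DED1, an RNA helicase of initiation, was not analysed here. Strand-specific libraries of poly(A) RNA had been sequenced from 8 yeast cultures, and the values were scaled signal per gene on the sacCer3 build. The wild type was BY4741, a MATa strain lacking HIS3, LEU2, MET15 and URA3, grown in YPD at 30 °C to an optical density of 0.5. It was untreated (libraries 21 and 24) or had received 200 ng/mL rapamycin, an inhibitor of the growth-control kinase TORC1, for 10 min (libraries 22 and 25) or for 60 min (libraries 23 and 26). The other strains both carried prp4-1, a mutant allele of a spliceosomal protein gene, and were grown in YPD at 26 °C. In library 27 the strain was MATalpha and carried his3-delta-200, ura3-52, leu2-3,112 and ade2- alleles, and in library 28 it carried k-HIS3:pGAL1-IFH1 with prp4-1. The label of library 28 gives IFH1, an activator of ribosomal protein genes, as lowered by about 50%. YPD is a glucose medium, in which the GAL1 promoter is repressed. There were 2 biological replicates of each wild-type group and 1 library of each prp4-1 strain.

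Initiation in eukaryotes begins when a cap-binding complex prepares the mRNA and a small ribosomal subunit, loaded with initiator tRNA by the GTPase eIF2 and held by the scaffold eIF3, scans to the start codon. Elongation factors then bring aminoacyl-tRNA to the ribosome and move it along the message, and release factors end the chain. Some of these factors are among the most abundant proteins of a growing yeast cell. TORC1 couples the production of ribosomes and of the translation machinery to nutrients.

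The summed signal of all genes was 3206357 and 3306674 in the untreated libraries, 2753329 and 2855900 at 10 min, 2025663 and 2037245 at 60 min, and 3319861 and 3065499 in the prp4-1 and the prp4-1 pGAL-IFH1 library. How many reads lie behind a value cannot be recovered from the table. The libraries matched the mating types of their labels, with 6 a-specific genes summing to between 3297 and 5751 in wild type and to between 116 and 168 in the prp4-1 pair, and 4 alpha-specific genes to at most 92.3 and at least 28535. URA3 and MET17, which is MET15, were at 0 or under 1 in wild type. The prp4-1 pair differed in marker genes as well as in IFH1. MET17 was at 1495 in prp4-1 and at 0 in prp4-1 pGAL-IFH1, URA3 was at 111 and 0, and LEU2 was at 1386 and 622. The effects of IFH1 and of the rest of the genotype therefore cannot be told apart in that pair. IFH1 itself was at 154 in prp4-1 and 86.1 in prp4-1 pGAL-IFH1. In bulk RNA of this kind, fewer cells with a transcript and less transcript per cell cannot be told apart.

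Levels spanned a wide range in untreated cells. Per kb of exon the highest was TEF2, which encodes the elongation factor eEF1A, at a scaled signal per kb of 18200, and the lowest was TIF4632, which encodes a form of the scaffold eIF4G, at 43.6. Whether the authors' scaling already corrects for length is not stated. TEF2 and TIF4632 were also the highest and the lowest before division by length, at 25062 ± 420 and 120 ± 2.95 (scaled signal, mean ± SD, n = 2). All 37 genes together took 3.55% and 3.62% of the signal of the untreated libraries. TEF1 and TEF2, both encoding eEF1A, accounted for 1.48% and 1.51%.

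Within 10 min of rapamycin most translation factor genes were lower. Of the 37, 33 fell, 0 rose and 4 were not called at a limma adjusted p under 0.05, while 30.2% of all 6127 genes tested were called lower and 26.8% higher. Their median log2 change was -0.73, beside -0.02 over all genes tested. In 36 of the 37, both treated libraries lay under both untreated ones, as they did for 40.0% of all genes. A fall of at least 2-fold was called for 8 genes, TIF4631, RPG1, NIP1, PRT1, TIF5, FUN12, GCD2 and YEF3, and for 8.42% of all genes. The 4 genes without a call were TIF4632, TEF1, TEF2 and CAM1.

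By 60 min the falls were deeper. Against untreated cells 34 genes were lower, 1 was higher and 2 were not called, with 38.5% of all genes called lower and 38.6% higher. The median log2 change of the 37 was -1.78, beside -0.00 over all genes tested. At least 2-fold falls were called for 33 of them and for 17.2% of all genes. Of the 33, 13 fell at least 4-fold, a limit at which the share of all genes was not computed. Both 60 min libraries lay under both untreated ones for 36 genes, as for 44.2% of all genes, and above them for 1, as for 43.9%. Tested directly between 10 and 60 min, 32 fell further, 2 rose and 3 were not called, with a median of -1.03. Over all genes 33.8% were called lower and 35.4% higher between these times. The later fall was at least 2-fold for 19 of the 37 and for 8.96% of all genes. Both 60 min libraries lay under both 10 min ones for 34 of the 37 (42.2% of all genes) and above them for 2 (44.8%). The summed share of the 37 genes in the signal was 2.92% and 3.11% at 10 min and 1.66% and 1.75% at 60 min.

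**Figure D1:**
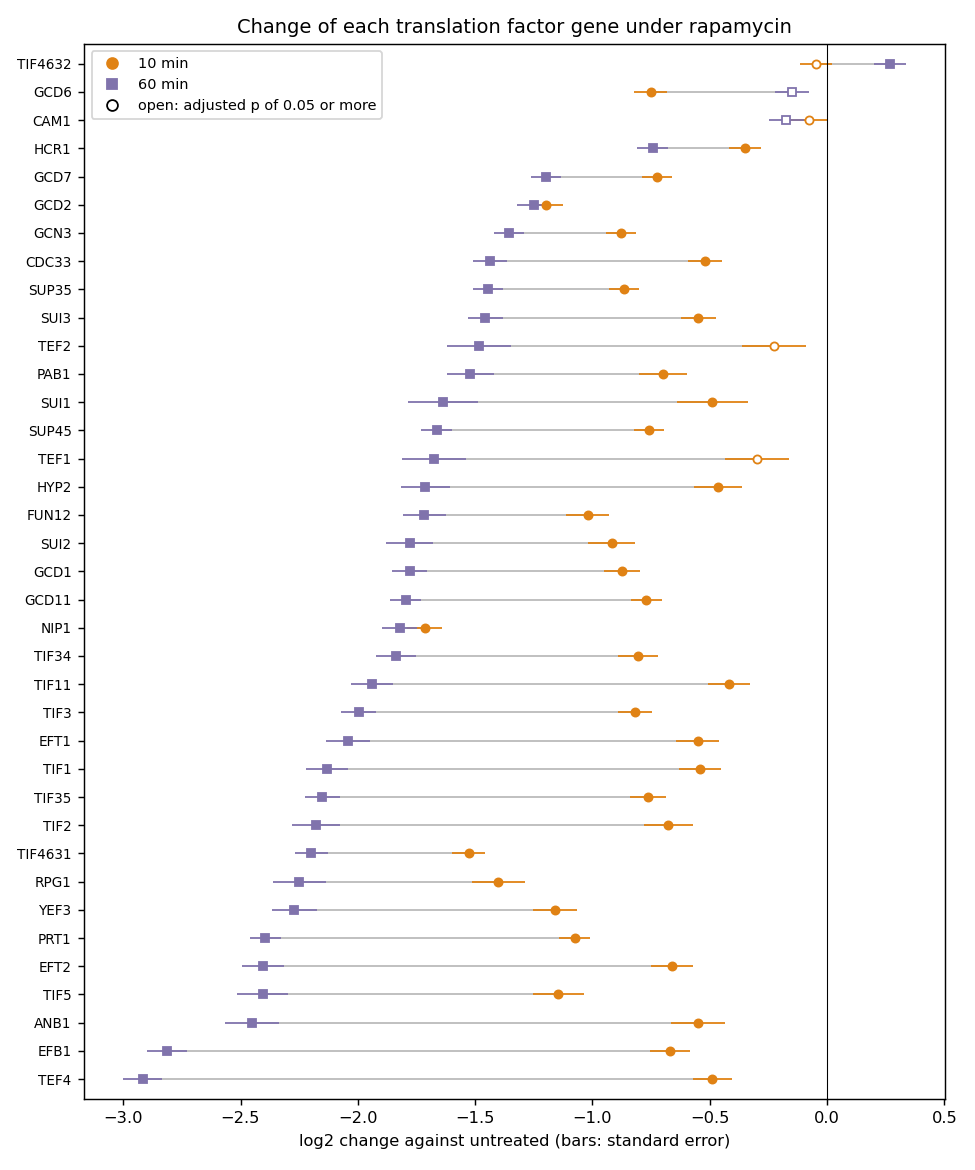
Log2 change of each translation factor gene against untreated cells (x axis, log2 of scaled signal plus 1) at 10 min (circles) and 60 min (squares) of rapamycin, with standard errors from limma as bars and open symbols for genes not called. Genes are ordered by the 60 min value, from TIF4632 at 0.27 to TEF4 at -2.92.

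These values rest on the authors' scaling, which holds the median of all genes near 0. Scaling each library to the same total signal instead moved the median of all genes up by 0.21 at 10 min and by 0.67 at 60 min, and the median of the 37 genes to -0.51 and -1.10. With that scaling 30 genes were still called lower at 10 min and 33 at 60 min. Of all 6127 genes tested, it gave 1152 lower and 2560 higher at 10 min, and 1125 lower and 3997 higher at 60 min.

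The genes followed 6 courses, and how many of all genes took each course was not computed. In the single comparisons 30.2%, 38.5% and 33.8% of all genes were called lower at 10 min, at 60 min and between the times. The largest group, 30 genes, was lower in all of the 3 comparisons. Under total-signal scaling 24 of them were still called lower in all 3, and 6 were not: HCR1, SUI1 and TIF11 at 10 min, HCR1 also at 60 min and between the times, and GCD7, GCN3 and SUP35 between the times, at -0.011, -0.014 and -0.12. TEF1 and TEF2 were called lower at 60 min and in the direct comparison of the times but not at 10 min. NIP1 and GCD2 were low by 10 min, with no further change called. GCD6 was lower at 10 min and higher again at 60 min than at 10 min. TIF4632 was higher at 60 min, and CAM1 had no call in any comparison.

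Sequence upstream of the genes was read from the R64 genome for 500 bases before each start codon, and searched on both strands for short motifs of growth genes. The RRPE core, AAAAATTT, was found upstream of 27 of the 37 genes (73.0%) and of 1230 of 6000 genes in the genome (20.5%). The PAC core, GATGAG, was found for 13 of the 37 (35.1%), each of which also held the RRPE core, against 28.2% of all windows, and both together in 8.47% of all windows. Matches of the RRPE core may overlap, since AAAAATTTTT holds it once on each strand. The match nearest to the gene lay between positions -321 and -95 from the start codon, at a median of -167, and within 250 bases in 25 of the 27. The following stretches are shown because these genes had some of the largest falls at 10 min (NIP1, TIF4631, RPG1 and YEF3) or at 60 min (EFB1 and TEF4) and hold the RRPE core. GCD2, with the fourth largest fall at 10 min, holds no RRPE core. Capitals mark RRPE and PAC cores on either strand, and each runs 5′ to 3′ on the coding strand of its gene. In R64 they lie at chrXIII:895557-895616 (NIP1, minus strand), chrVII:823819-823878 (TIF4631, plus), chrII:398338-398397 (RPG1, minus), chrXII:636580-636639 (YEF3, plus), chrI:141994-142053 (EFB1, plus) and chrXI:282731-282790 (TEF4, plus).
NIP1: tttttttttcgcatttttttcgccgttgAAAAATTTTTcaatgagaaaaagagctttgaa
TIF4631: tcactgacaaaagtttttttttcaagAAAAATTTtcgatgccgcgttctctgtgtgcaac
RPG1: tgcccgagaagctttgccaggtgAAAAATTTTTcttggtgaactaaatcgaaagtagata
YEF3: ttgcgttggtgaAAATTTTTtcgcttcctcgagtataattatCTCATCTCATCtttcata
EFB1: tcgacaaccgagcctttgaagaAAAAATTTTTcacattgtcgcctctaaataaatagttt
TEF4: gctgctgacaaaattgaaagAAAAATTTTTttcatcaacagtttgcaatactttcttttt
The 10 genes without an RRPE core in this window were CAM1, GCD2, GCD6, GCD7, GCN3, HCR1, PRT1, TEF2, TIF11 and TIF4632. They include the 3 genes that were not lower at 60 min, but also PRT1, at a log2 change of -2.39, and TIF11, at -1.94. The median log2 change at 60 min was -1.84 for the 27 genes with the core, which ran from -2.92 to -1.44, and -1.22 for the 10 without it, which ran from -2.39 to 0.27. At 10 min these medians were -0.76 and -0.57. For comparison, the RRPE core was found for 37 of 41 ribosome assembly genes (90.2%), 17 of 28 other cytosolic translation genes (60.7%) and 35 of 137 cytosolic ribosomal protein genes (25.5%). The PAC core was found for 39 of the 41 assembly genes (95.1%).

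**Figure D2:**
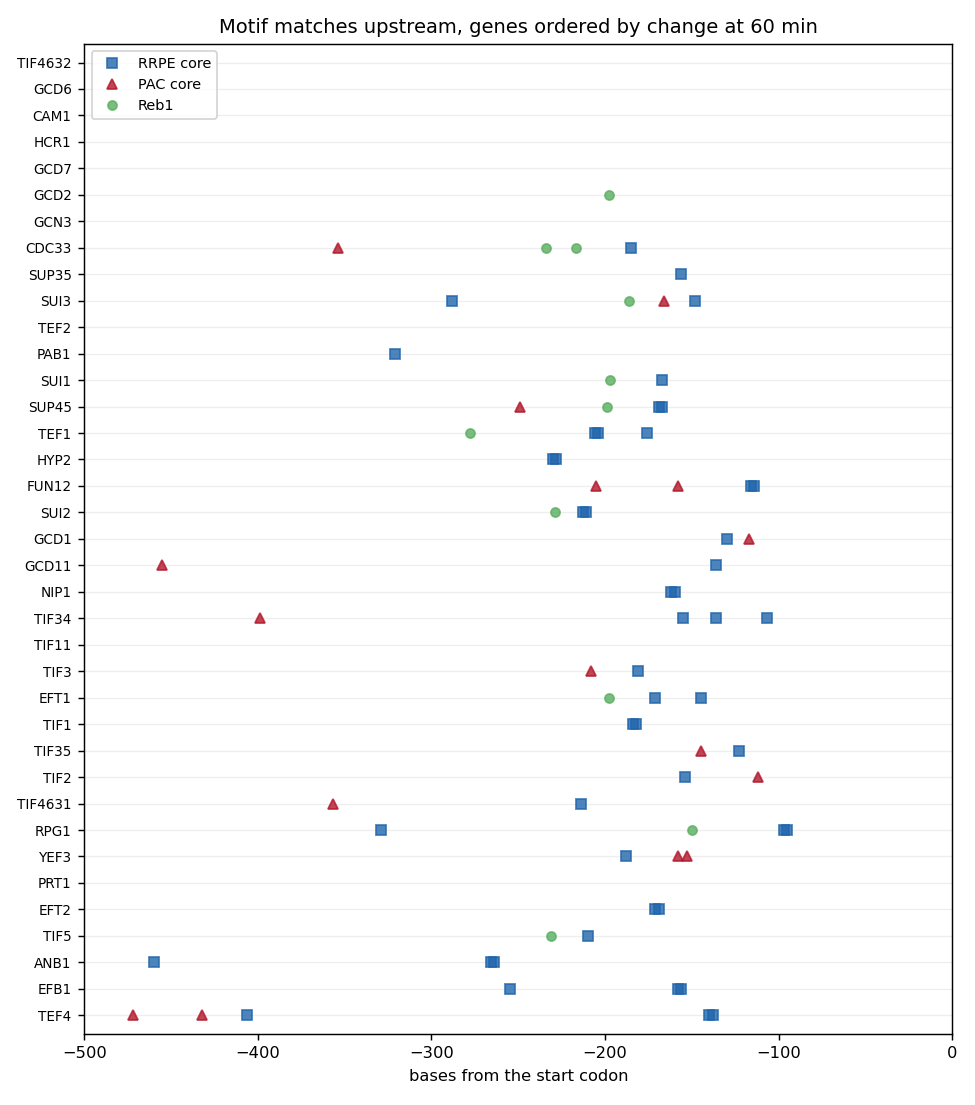
Position of RRPE core, PAC core and Reb1 matches (x axis, bases from the start codon) upstream of each gene, with genes ordered by their log2 change at 60 min, from TIF4632 at the top to TEF4 at the bottom. RRPE cores were found for 27 of the 37 genes, and none for the 7 genes at the top.

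Motifs of other factors were searched in the same windows. The Reb1 motif TTACCCG, bound by a general regulatory factor that keeps promoters open, was found for 10 of the 37 genes and for 605 of the 6000 windows (10.1%). Rap1, the activator of ribosomal protein genes, has a motif, ACCCNNACA, that was found for TEF2 and TEF4 and in 5.47% of all windows, against 54 of 137 ribosomal protein genes (39.4%). TGACTCA, the motif of the amino acid starvation factor Gcn4, was found for SUP35 and in 4% of all windows.

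Among the cap-binding complex genes the paralogues of eIF4G parted. TIF4631, which encodes the more abundant form of this scaffold and joins the cap-binding protein to the helicase eIF4A (chromosome VII, 824059 to 826917), was at a scaled signal of 439 and 451 in the untreated libraries, 151 and 156 at 10 min, and 100.1 and 92.4 at 60 min. Its groups did not overlap at any step. On the log2 scale it changed by -1.53 at 10 min (SE 0.0698, limma adjusted p = 1.23e-06) and by -2.20 at 60 min (SE 0.0698, limma adjusted p = 6.04e-08). TIF4632, the other form (chromosome VII, 406860 to 409604), was at 122 and 118 in the untreated libraries, 112 and 120 at 10 min, and 145 and 143 at 60 min. The 10 min libraries overlapped the untreated ones, and both 60 min libraries lay above all others. Its log2 change was -0.05 at 10 min (limma adjusted p = 0.571) and 0.27 at 60 min (SE 0.0684, limma adjusted p = 0.00777), and between these times it rose by 0.32 (limma adjusted p = 0.00414). The call at 60 min was lost without library 23, at 0.26 (limma adjusted p = 0.0526), and under total-signal scaling the change at 10 min was 0.16 and that at 60 min 0.94. TIF4631 made up 78.3% and 79.3% of the summed signal of this pair in untreated cells, 57.5% and 56.6% at 10 min, and 40.8% and 39.2% at 60 min.

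The log2 ratio of TIF4631 to TIF4632 changed by -1.48 at 10 min and by -2.47 at 60 min. No library of one group overlapped another in this ratio, and the exact permutation test gave p = 0.333, the smallest value that 2 against 2 libraries allow. A ratio within a library does not depend on its scaling. The coding sequences of this pair were 58.7% identical over their alignment and shared no window of 50 bases.

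The helicase eIF4A is encoded by TIF1 and TIF2, whose coding sequences differed at 6 of 1188 bases. TIF1 was at 4104 and 3539 in the untreated libraries, 2640 and 2596 at 10 min, and 856 and 883 at 60 min. For TIF2 the values were 4220 and 3463, 2342.5 and 2442, and 845 and 841. Both fell at each step without overlap, by log2 changes of -2.13 for TIF1 and -2.18 for TIF2 at 60 min (limma adjusted p = 2.96e-07 and 5.23e-07). Their ratio moved by no more than 0.13 on the log2 scale in any comparison. Since 84.9% of the windows of 50 bases in either gene occur elsewhere in the genome, and neither the read length nor the handling of shared reads is given in the sources used here, the split between the copies is uncertain.

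Other members of the complex fell as well. CDC33, the cap-binding protein eIF4E, was at -0.52 and -1.44 at 10 and 60 min on the log2 scale, TIF3, which encodes the helicase cofactor eIF4B, at -0.82 and, at 60 min, 3.99-fold lower, and PAB1, the poly(A)-binding protein gene, at -0.70 and -1.52. All of these passed the test at both times. Of the 7 genes of the complex, 6 fell at each time (30.2% and 38.5% of all genes) and the exception was TIF4632.

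The eIF3 scaffold genes had the lowest median log2 change of any role at 10 min, with eIF2B next at -0.87. This difference was not tested. All 6 eIF3 genes fell at both times (30.2% and 38.5% of all genes), with medians of -0.94 at 10 min and -1.99 at 60 min. NIP1, which encodes subunit c (chromosome XIII, 892988 to 895426) and whose upstream RRPE cores are printed above, was at 287 and 292 in the untreated libraries, 90.1 and 84.8 at 10 min, and 84.7 and 77.7 at 60 min. Almost the whole fall lay in the first 10 min, and the 10 and 60 min values nearly met. Its log2 change was -1.72 at 10 min (SE 0.0739, limma adjusted p = 9.03e-07), below which lay 4.05% of all genes tested, and -0.11 between 10 and 60 min (limma adjusted p = 0.233). Under total-signal scaling that later change was 0.35 and passed the test (limma adjusted p = 0.00293). RPG1, encoding the largest subunit, a (chromosome II, 395383 to 398277), was at 753 and 596 in the untreated libraries, 241 and 266 at 10 min, and 142 and 138 at 60 min. The log2 changes were -1.40 at 10 min and -2.25 at 60 min, with no overlap between the groups.

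PRT1, the gene of subunit b, fell at a similar pace, to -1.08 at 10 min and -2.39 at 60 min. TIF34 (subunit i) was at -0.81 and -1.84, and TIF35 (subunit g) at -0.76 and -2.15. HCR1, encoding the loosely bound subunit j, moved least, at -0.35 and -0.74. Under total-signal scaling HCR1 was at -0.14 and -0.06 and passed the test at neither time (limma adjusted p = 0.157 and 0.454). The summed signal of the 6 genes was 6561 and 6976 in the untreated libraries, 3808 and 4013 at 10 min, and 2093 and 2138 at 60 min.

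The 4 genes of scanning and subunit joining fell at both times (30.2% and 38.5% of all genes). TIF11 and SUI1, however, were not called at 10 min under total-signal scaling. TIF5, encoding the GTPase-activating factor eIF5 (chromosome XVI, 648704 to 649921), was at 1426 and 1139 in the untreated libraries, 563 and 589 at 10 min, and 249 and 230 at 60 min. It fell without overlap, at log2 changes of -1.14 at 10 min and -2.41 at 60 min (SE 0.110, limma adjusted p = 7.29e-05 and 4.28e-07). FUN12, which encodes the subunit-joining GTPase eIF5B, was at -1.02 and -1.72. TIF11 encodes eIF1A, which binds the decoding site of the small subunit, and changed by -0.42 and -1.94, with -0.20 at 10 min under total-signal scaling (limma adjusted p = 0.106). SUI1, encoding the start-codon fidelity factor eIF1, was at 2314 and 3292 in the untreated libraries, and at 10 min it stood at -0.49 on the log2 scale (SE 0.151, limma adjusted p = 0.0256). The 10 min value moved with the untreated library left out, at -0.74 without library 21 and -0.24 without library 24, both called. It was not called without library 22, at -0.52 (limma adjusted p = 0.0842), without library 25, at -0.46 (limma adjusted p = 0.115), or under total-signal scaling, at -0.27 (limma adjusted p = 0.147). The change of -1.64 at 60 min passed (limma adjusted p = 2.50e-05).

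The GTPase eIF2, which carries the initiator tRNA, has 3 subunits. The genes of all 3 fell at both times (30.2% and 38.5% of all genes). The alpha subunit gene SUI2, whose product is phosphorylated under amino acid starvation, was at -0.92 and -1.78 at 10 and 60 min. SUI3 (beta) was at -0.55 and -1.46, and GCD11 (gamma, the GTPase itself) at -0.77 and -1.80.

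The exchange factor eIF2B, which reloads eIF2 with GTP, has 5 subunits, and the 5 genes did not follow the same course. All were lower at 10 min (30.2% of all genes), at log2 changes from -1.20 for GCD2 to -0.73 for GCD7. At 60 min 4 remained lower than in untreated cells (38.5% of all genes). GCD6, which encodes the catalytic epsilon subunit (chromosome IV, 884727 to 886865), was at 276 and 296 in the untreated libraries, 167 and 172 at 10 min, and 265 and 250.2 at 60 min. The 10 min libraries lay under all the others, and the 60 min libraries came back to just under the untreated ones. Its log2 change was -0.75 at 10 min (SE 0.0706, limma adjusted p = 6.49e-05), 0.60 from 10 to 60 min (limma adjusted p = 0.000166) and -0.15 at 60 min against untreated (limma adjusted p = 0.0863). Under total-signal scaling the last value was 0.53 and passed the test (limma adjusted p = 0.000243), and without library 21 it was -0.20 and passed as lower (limma adjusted p = 0.0382).

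GCD2, the delta subunit (chromosome VII, 644860 to 646815), was at 385 and 366 in the untreated libraries, 157 and 170 at 10 min, and 162 and 153 at 60 min. The treated groups overlapped, both far under the untreated one. The change between 10 and 60 min was -0.05 on the log2 scale (limma adjusted p = 0.556), or 0.41 under total-signal scaling (limma adjusted p = 0.00151). GCD1, encoding the gamma subunit, the partner of epsilon in the catalytic part, was at -0.87 and -1.78. The genes of the regulatory alpha and beta subunits were at -0.88 and -1.35 (GCN3) and at -0.73 and -1.20 (GCD7). At 60 min the epsilon and gamma genes, which stood at 286 and 479 in untreated cells, were therefore at 258 and 139.

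**Figure D3:**
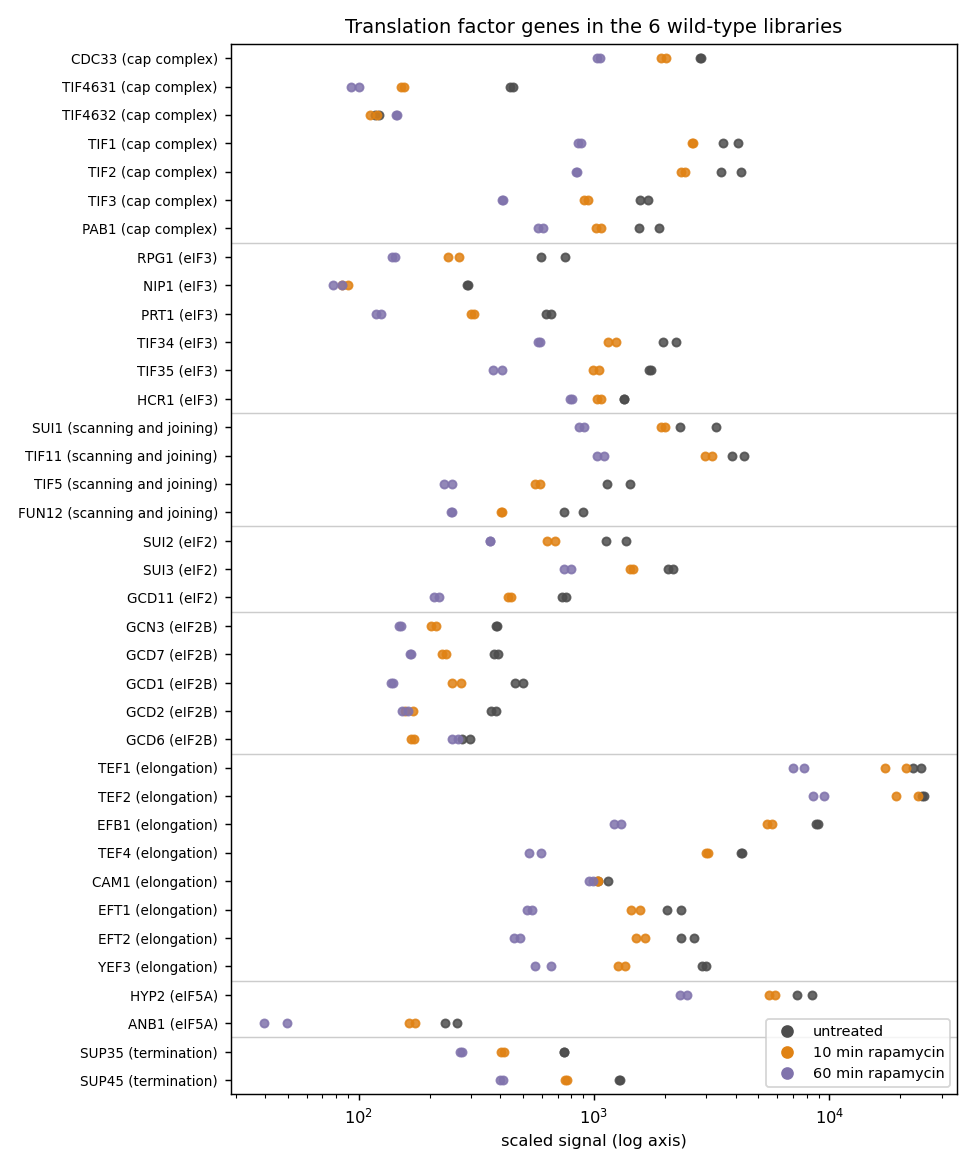
Scaled signal (x axis, log scale) of each translation factor gene in the 6 wild-type libraries, with 1 point per library and genes grouped by role. The 60 min points lie lowest for most genes, and those of TIF4632, GCD6 and CAM1 lie close to or above the untreated ones.

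The 8 elongation factor genes had a median of -0.52 at 10 min and of -2.16 at 60 min on the log2 scale, and the 25 initiation genes had -0.77 and -1.78. Whether the roles differed was not tested. TEF1 was at 24424 and 22750 in the untreated libraries, 21253 and 17261 at 10 min, and 7812 and 6979 at 60 min. TEF2 stood at 25359 and 24765, then 23812 and 19265, then 9458 and 8505. Both 10 min libraries lay under the untreated ones for either gene, but they lay well apart from each other. The log2 changes at 10 min, -0.30 for TEF1 (SE 0.136, limma adjusted p = 0.0974) and -0.23 for TEF2 (limma adjusted p = 0.193), did not pass, and TEF1 passed without library 22 at -0.45 (limma adjusted p = 0.0380). At 60 min both were lower, at log2 changes of -1.67 and -1.48 (limma adjusted p = 1.21e-05 and 2.48e-05). TEF1 and TEF2 differed at 2 of 1377 coding bases, so the split between them is uncertain.

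The exchange factor of eEF1A showed the deepest falls of the set at 60 min and, beside them, the gene with no call. EFB1, which encodes the catalytic alpha subunit (chromosome I, 142174 to 143160), was at 8956 and 8760 in the untreated libraries, 5427 and 5731 at 10 min, and 1306 and 1216 at 60 min. TEF4, which encodes a gamma subunit (chromosome XI, 282891 to 284455), was at 4260 and 4201, at 2990.2 and 3041, and at 594 and 527. Neither gene had overlapping groups. At 10 min the log2 changes were -0.67 for EFB1 and -0.49 for TEF4, and at 60 min they were -2.81 (SE 0.0854, limma adjusted p = 4.96e-08) and -2.92 (SE 0.0832, limma adjusted p = 3.62e-08). CAM1, the other gamma subunit gene (chromosome XVI, 464401 to 465648), was at 1144 and 1039.8 in the untreated libraries, 1027 and 1039.7 at 10 min, and 986 and 948 at 60 min. Its values lay within a narrow band in all 6 libraries, with log2 changes of -0.08 at 10 min (limma adjusted p = 0.414) and -0.17 at 60 min (SE 0.0759, limma adjusted p = 0.0681). Without library 24 the latter was -0.24 and passed (limma adjusted p = 0.0161), and under total-signal scaling it was 0.51 and passed as higher (limma adjusted p = 0.000183), while the value at 10 min was 0.14.

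Within the gamma subunit pair, TEF4 made up 78.8% and 80.2% of the summed signal in untreated cells, 74.4% and 74.5% at 10 min, and 37.6% and 35.8% at 60 min. The log2 ratio of TEF4 to CAM1 changed by -0.41 at 10 min and by -2.74 at 60 min, with no overlap between groups (exact permutation p = 0.333, the smallest possible). Their coding sequences were 68.6% identical and shared no window of 50 bases.

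EFB1 and TEF4 were also the only members of the set with an intron in the gene models deposited with the data. The intron of EFB1 had 366 bases (chrI:142254-142619, plus strand) and that of TEF4 326 bases (chrXI:283096-283421, plus strand). Their ends are shown because prp4-1 affects splicing. Capitals mark the donor, the branch point and the acceptor.
EFB1 donor: GTATGTtccgat
EFB1 branch point to acceptor: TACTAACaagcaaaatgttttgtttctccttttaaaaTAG
TEF4 donor: GTATGTtccata
TEF4 branch point to acceptor: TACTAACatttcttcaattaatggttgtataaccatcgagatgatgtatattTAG
Both introns had the same donor and branch point motifs, and the branch point lay 40 bases from the end of the EFB1 intron and 55 bases from that of TEF4, counted from the first base of the motif. Whether the signal of a gene was summed over exons or over the whole span is not stated, so spliced and unspliced RNA could not be separated.

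The translocation factor eEF2 is encoded by EFT1 and EFT2, which differed at 4 of 2529 coding bases. EFT1 was at 2351 and 2043 in the untreated libraries, 1562 and 1431 at 10 min, and 545 and 519 at 60 min. EFT2 stood at 2660 and 2351, at 1651 and 1514, and at 486 and 457. Both fell without overlap, at log2 changes of -2.04 and -2.41 at 60 min (limma adjusted p = 4.10e-07 and 1.47e-07). EFT1 rose as a share of the pair from 46.5% and 46.9% to 52.9% and 53.1%, with the uncertainty that 91.9% of the windows of 50 bases occur elsewhere in the genome.

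YEF3, which encodes eEF3, an ATPase needed for elongation in fungi (chromosome XII, 636780 to 639914), fell early for an elongation gene. It was at 2983 and 2875 in the untreated libraries, 1355 and 1266 at 10 min, and 657 and 559 at 60 min, with no overlap. The log2 changes were -1.16 at 10 min (SE 0.0945, limma adjusted p = 2.91e-05) and -2.27 at 60 min (limma adjusted p = 2.61e-07). HEF3, the paralogue of YEF3 that is scarcely used in growing cells, was in the list of other translation genes and went the other way, at 0.55 and 2.43.

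The hypusine-bearing factor eIF5A, which relieves ribosomes stalled at difficult peptide bonds, is encoded by HYP2 in aerobic cells and by ANB1 in cells short of oxygen. HYP2 (chromosome V, 85676 to 86149) was at 8471 and 7324 in the untreated libraries, 5857 and 5560.1 at 10 min, and 2319 and 2492 at 60 min. ANB1 (chromosome X, 524908 to 525381) was at 232 and 261, at 173 and 163, and at 39.4 and 49.5. Both genes fell at each step without overlap, HYP2 at log2 changes of -0.46 and -1.71 and ANB1 at -0.55 and -2.45 (limma adjusted p at 60 min = 2.03e-06 and 4.98e-07). HYP2 made up between 96.6% and 98.3% of the pair in all 6 wild-type libraries. The coding sequences were 90.9% identical but shared no window of 50 bases.

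ANB1 is repressed by Rox1 when oxygen is present, and the stretch upstream of it that holds 4 matches of the Rox1 core, ATTGTT, is shown for that reason, at chrX:525562-525701 on the minus strand, with the matches in capitals.
ANB1: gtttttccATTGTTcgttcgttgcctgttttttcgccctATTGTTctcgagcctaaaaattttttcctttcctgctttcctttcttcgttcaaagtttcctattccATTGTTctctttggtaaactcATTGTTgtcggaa
The core is short, and 48.9% of all windows hold it at least once. It was found for 14 of the 37 translation factor genes (37.8%), not including HYP2.

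The release factor genes fell side by side. SUP45, which encodes the stop-codon reader eRF1, was at log2 changes of -0.76 and -1.66 at 10 and 60 min. SUP35, encoding the GTPase eRF3, which can also form a prion, was at -0.86 and -1.45.

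**Figure D4:**
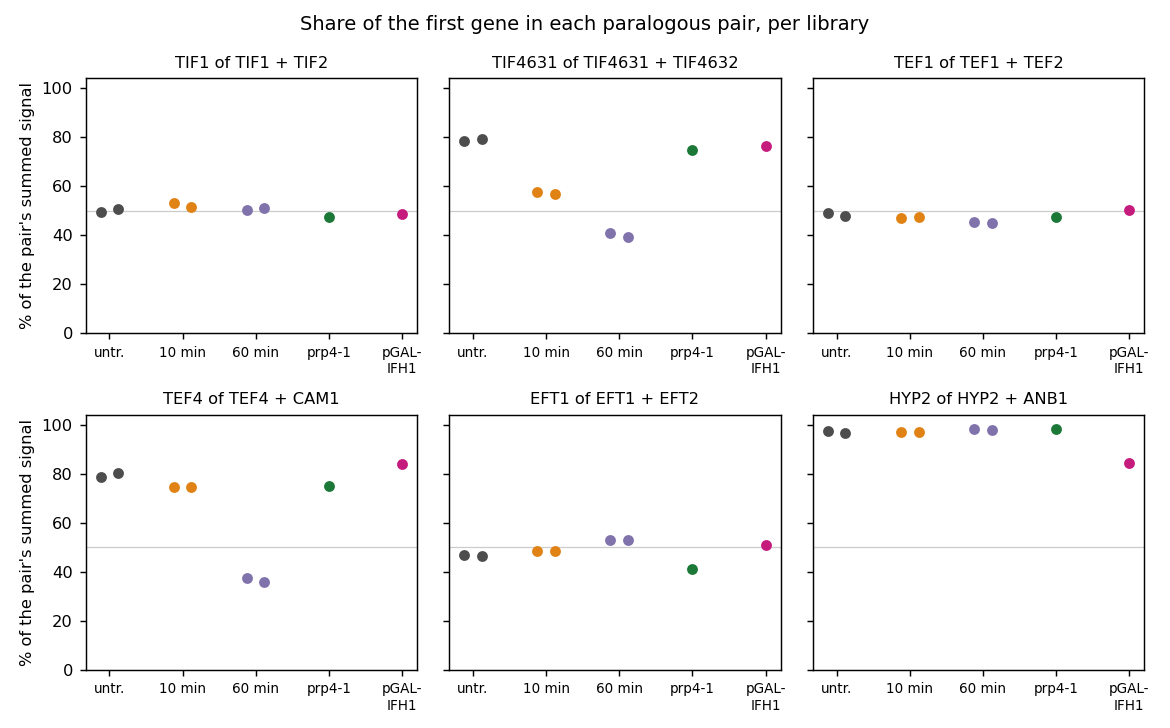
Share of the first-named gene in the summed scaled signal of each of the 6 paralogous pairs (y axis, percent), with 1 point per library. TIF4631 went from 78.3% and 79.3% in untreated cells to 40.8% and 39.2% at 60 min and TEF4 from 78.8% and 80.2% to 37.6% and 35.8%, while TIF1 and TEF1 stayed between 45.1% and 53.0% in wild type.

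Genes that act on or beside the translation factors were read from the same fit. Their counts stand beside 30.2% of all genes called lower and 26.8% higher at 10 min, and 38.5% lower and 38.6% higher at 60 min. Among 28 other cytosolic translation genes, 19 fell and 4 rose at 10 min and 22 fell and 5 rose at 60 min, with medians of -0.39 and -1.15. NEW1, an ATPase related to YEF3 (-1.83), and SRO9, an RNA-binding protein of polysomes (-2.65), had the smallest p at 10 min. STM1, which clamps idle ribosomes (-3.53), and SRO9 (-4.13) had the smallest at 60 min. The genes that rose at both times were DBP1, a paralogue of the helicase gene that was not analysed, HEF3, SSD1 and NGR1, and GCN2, the kinase of eIF2, was at -0.02 and 0.40 with a call at 60 min. With total-signal scaling 7 of the 28 were higher at 10 min and 9 at 60 min, beside 2560 and 3997 of all 6127 genes.

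Enzymes that modify translation factors were lower in nearly every case. All 9 genes of hypusine and diphthamide synthesis, which modify eIF5A and eEF2, fell at both times (30.2% and 38.5% of all genes), with medians of -1.48 and -1.74. JJJ3 (-3.32) and DPH1 (-2.48), both of diphthamide synthesis, had the smallest p at 10 min, and LIA1 (-4.32), the deoxyhypusine hydroxylase that finishes hypusine, and DPH1 (-3.06) had the smallest at 60 min. Of 10 genes for methylation, mostly of elongation and release factors, 9 fell at 10 min (30.2% of all genes) and 8 at 60 min (38.5%), and 0 rose. They were led by YBR271W (-1.98) and EFM1 (-1.49) at 10 min and by SEE1 (-4.16) and YBR271W (-2.07) at 60 min, all of which encode methyltransferases of elongation factors.

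Chaperones of the nascent chain were mostly lower. Of 7, 6 fell and 1 rose at 10 min (30.2% and 26.8% of all genes), and 6 fell and 0 rose at 60 min (38.5% and 38.6%), with medians of -0.45 and -1.65. The ribosome-bound Hsp70 gene SSB1 (-0.79) and SSZ1 (-0.42) had the smallest p at 10 min, and SSB1 (-4.14) and SSB2 (-3.54) at 60 min. Of 9 mitochondrial factors, 7 were higher and 0 lower at 10 min (26.8% and 30.2% of all genes). At 60 min 4 were higher and 3 lower, near the 38.6% and 38.5% of all genes. MEF2 was at 1.52 and RRF1 at 0.40 at 10 min, and YLR281C at 2.16 and RRF1 at -0.81 at 60 min. Among 10 Rox1 and oxygen regulated genes 6 rose and 1 fell at 10 min (26.8% and 30.2% of all genes), led by CYC7 (2.90) and COX5B (1.60). At 60 min 6 rose and 3 fell (38.6% and 38.5% of all genes), led by COX5B (3.34) and CYC7 (2.96).

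Set beside the rest of the protein synthesis machinery, the factors fell less than ribosome assembly genes at both times and less than ribosomal protein genes at 60 min, by their medians. The medians of 41 ribosome assembly genes were -2.63 at 10 min and -3.18 at 60 min, and all 41 were lower at both times. For 137 cytosolic ribosomal protein genes, 116 of which were lower at 10 min and 136 at 60 min, the medians were -0.53 and -4.31. The translation factor genes, at -0.73 and -1.78, lay nearer to the ribosomal protein genes at 10 min and nearer to the assembly genes at 60 min. Between 10 and 60 min the medians were -0.20 for assembly, -1.03 for the factors and -3.83 for ribosomal proteins. These comparisons share their untreated or treated libraries, and the differences between the lists were not tested.

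The comparison of prp4-1 pGAL-IFH1 with prp4-1 asked what lowering IFH1 does in a splicing mutant. It had 1 library on each side and no test. The translation factor genes were mostly higher in prp4-1 pGAL-IFH1, where 34 of 37 had a ratio above 1, as 50.1% of all 6222 genes did. Past 1.5-fold there were 17 higher, beside 18.2% of all genes, and 1 lower, beside 21.5%. Their median log2 ratio was 0.56, beside 0.00 over all genes, 1.28 for ribosome assembly genes and -0.47 for cytosolic ribosomal protein genes. Their share of the summed signal was 3.72% in prp4-1 and 4.68% in prp4-1 pGAL-IFH1. Just outside the 1.5-fold limit lay SUI2, at 1.48-fold, and just inside it GCD1, at 1.51-fold.

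The genes of eIF5A moved in opposite directions and gave the largest ratios in the set. HYP2 was at 13571 in prp4-1 and at 4747 in prp4-1 pGAL-IFH1, a log2 ratio of -1.52, and ANB1 was at 208 and 877, a log2 ratio of 2.07. HYP2 made up 98.5% of the pair in the former and 84.4% in the latter, under its range in wild type. Other oxygen regulated genes differed between these libraries as well, with 7 of 10 past 1.5-fold lower and 2 past it higher in prp4-1 pGAL-IFH1. CYC1, for cytochrome c, was at 2013 and 262, COX5A at 1474 and 562, and ROX1, the repressor of ANB1, at 721 and 396. The hypoxic genes AAC3 and HEM13 were higher, at 65.2 and 144 and at 357 and 574, while COX5B, also a gene of low oxygen, was at 259 and 47.0. The part of these differences in the values of HYP2 and ANB1 was not tested.

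After ANB1 the highest ratios belonged to initiation genes. GCD7, the beta subunit of eIF2B, was at 269 and 570, a log2 ratio of 1.08, and TIF11 was at 3602 and 6710, a log2 ratio of 0.90. The lowest after HYP2 were elongation genes, CAM1, at 1096 and 985 (-0.15), and TEF2, at 28809 and 28571 (-0.01). Every role but eIF5A and elongation had all of its members above a ratio of 1, with medians from 0.45 for the cap complex to 0.74 for termination. Of the genes with introns, EFB1 was at 6086 and 10255 (0.75) and TEF4 at 3322 and 5188 (0.64), both past 1.5-fold.

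**Figure D5:**
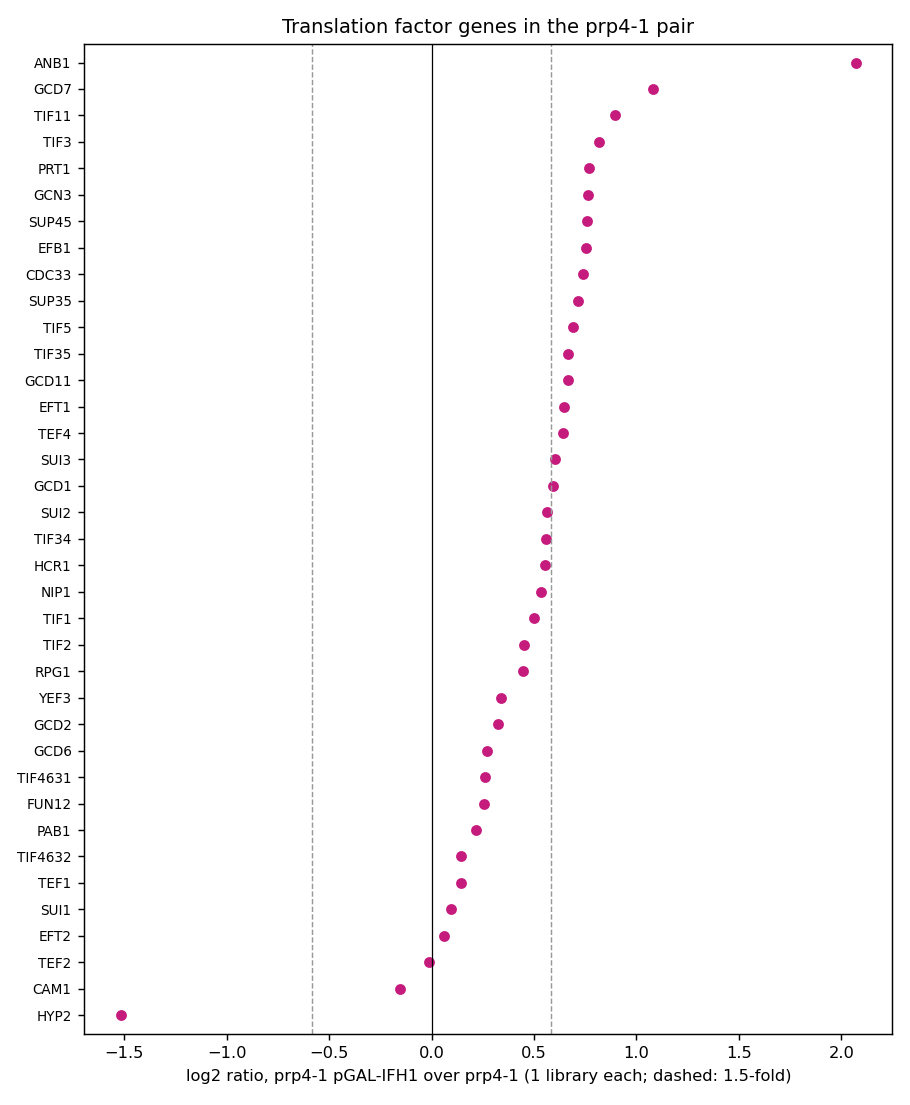
Log2 ratio of scaled signal plus 1 in prp4-1 pGAL-IFH1 over prp4-1 (x axis) for each translation factor gene, with 1 library per strain and dashed lines at 1.5-fold. ANB1, at 2.07, and HYP2, at -1.52, lie apart at the ends, and 34 of the 37 genes have a ratio above 1.

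In wild type, IFH1 was at a log2 change of -1.92 at 10 min (limma adjusted p = 3.48e-06) and of -0.29 at 60 min (limma adjusted p = 0.0398). At these times 33 and 34 of the translation factor genes were lower, beside 30.2% and 38.5% of all genes. In the prp4-1 pair, with 1 library each and other differences of genotype, IFH1 was lower by label and by signal. There 34 of the 37 genes had a higher signal, as 50.1% of all genes did. A link between IFH1 and these genes was not tested. TIF4631 made up 74.9% of its pair with TIF4632 in prp4-1 and 76.4% in prp4-1 pGAL-IFH1, and TEF4 made up 75.2% and 84.0% of its pair with CAM1. Neither library showed the low shares of TIF4631 and TEF4 that were measured at 60 min of rapamycin.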

How the data were processed

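Poly(A) RNA was sequenced in 8 libraries. Reads were mapped with TopHat and Bowtie to sacCer3, per the submitters' processing notes. The authors deposited signal per gene, scaled by 1 constant per library. How reads were summarised per gene and how the constant was chosen are not stated, so no counting interval is given. The 8 unscaled columns went unused. Exons and introns were taken from the authors' deposited mapping annotation, whose coordinates (other) count from 1. Of 5449 names matched to R64, 98.2% had the same coordinates.

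Columns were assigned to groups by name. The 6 wild-type libraries were fitted together in R 4.3.3 with limma 3.58.1, with group as the only term and a trend of the variance with intensity, on log2 of signal plus a pseudocount of 1. Genes whose mean reached 1 were tested (6127), and p was adjusted over them by Benjamini-Hochberg with a threshold of 0.05. Low genes are understated on that scale. All 37 members passed the filter. Ratios of paralogues were tested by exact permutation (two-sided). The prp4-1 pair was compared as ratios over 6222 genes. On simulated data for 10 min against untreated (6127 genes, 200 changed), the share recovered by limma was 83.9% at 1.5-fold, 94.2% at 2-fold and 97.1% at 4-fold, and 15 unchanged genes were called. The real comparison called many more genes, 1848 lower and 1645 higher, so these shares need not hold for it.

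Values per library are given for both genes of each pair, for the 5 largest called falls and rises in each wild-type comparison, for the highest and lowest level per kb, and for the 3 highest and 3 lowest prp4-1 ratios. Of each other list the 2 smallest p at each time are named, and further genes were named after their values were seen. The members, lists and motifs were chosen with earlier results of these data known. DED1, and TSF1 of the mitochondrial list, were not analysed here. Upstream windows, introns and alignments were read from the R64 genome of RefSeq with Biopython 1.88 in Python 3.11.15.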

Additional observations from a re-analysis of the deposited data

Results flagged for a closer look

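The change between 10 and 60 min was tested directly, and 4 genes stood out because their calls against untreated cells differed between the times and the difference itself passed. GCD6 rose by 0.60 on the log2 scale from 10 to 60 min (limma adjusted p = 0.000166), having been lower at 10 min. TIF4632 rose by 0.32 (limma adjusted p = 0.00414) and was called only at 60 min. TEF1, at -1.38 (limma adjusted p = 6.63e-05), and TEF2, at -1.26 (limma adjusted p = 0.000109), were lower at 60 min and had no call at 10 min. With 2 libraries a group, no search for outlying libraries was made.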

How the results depend on the processing

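No paired analysis was possible because the columns carry library numbers but no replicate number. Settings other than total-signal scaling were pseudocounts of 0.1 and 10, no filter or a mean of at least 10, median-of-ratios scaling and no intensity trend. Fits of only the groups compared, and with each library left out, were also made. Of 1443 values for single genes under these settings, 1435 kept their side of the threshold. A value was counted as reversed if its direction changed and it was called under either setting, and 0 reversed. Under total-signal scaling 98 of 111 kept their side of the threshold, and 6 reversed. These were GCD6 (0.53) and CAM1 (0.51) at 60 min against untreated, and NIP1 (0.35), HCR1 (0.072), GCD2 (0.41) and CAM1 (0.37) at 60 against 10 min. At 10 min TIF4632 (0.16) and CAM1 (0.14) also changed sign under total-signal scaling, without a call before or after. That scaling moved the medians of the 37 genes to -0.51 at 10 min, -1.10 at 60 min, -0.56 between the times and 0.67 in the prp4-1 pair. It gave 3 members higher at 60 min and 5 between the times. Among the 28 other translation genes it gave 7 higher at 10 min, 9 higher at 60 min, and 10 higher and 12 lower between the times. Over all 6127 genes it gave 2560 higher at 10 min, 3997 higher at 60 min, and 3775 higher and 908 lower between the times. A shift of all genes by the scaling itself makes these moves, and without spike-ins neither scaling can be preferred.

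Leaving out each library in turn gave members a median log2 change of -0.75 to -0.71 at 10 min and -1.84 to -1.75 at 60 min. Between the times it was -1.05 to -0.98. In the same fits the median of all genes tested was -0.024 to -0.013 at 10 min and -0.009 to 0.001 at 60 min. Between the times it was 0.019 to 0.026. TIF4632, the member called higher at 60 min, was at 0.26 without library 23. A library left alone in its group was assumed to vary like the others. With a pseudocount of 10 the log2 ratio of TIF4631 to TIF4632 changed by -2.35 at 60 min and by -0.92 between the times, and that of HYP2 to ANB1 by 0.47 between the times. SUI1 at 10 min also lost its call without the filter (limma adjusted p = 0.0720) and without the trend (limma adjusted p = 0.0504). With 2 libraries a group, the exact test on ratios cannot go under 0.333.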
